A study of Caenorhabditis elegans with 10 samples.

Results

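The comparison described here sets animals mutant in the S-adenosylmethionine (SAM) synthetase gene *sams-1* against animals mutant in a gene needed to remake methionine. Its members are the 2 libraries of *sams-1(ww51)* and, as the other arm, the 6 libraries of *mthf-1(ww50)*, *metr-1(ww52)* and *mtrr-1(ww56)*, 2 of each strain, so that 8 of the 10 libraries of the series enter. All strains, the parent included, carry the integrated transgene wwIs24[Pacdh-1::GFP;*unc-119*(+)], in which the *acdh-1* promoter drives GFP, and *nhr-10(tm4695)*, a deletion in a nuclear hormone receptor gene. The 4 mutations came from a mutagenesis screen for reporter activation in the presence of vitamin B12, so each strain stands for 1 isolate of its gene. Animals were kept at 0.64 nM vitamin B12, synchronized by an L1 arrest of 18 hours, and grown for 48 hours with *E. coli* OP50 on plates containing 20 nM vitamin B12. Whole animals were collected, L4 and at least 200 per sample by the labels, whereas the methods give a larger number of animals picked at the late L4 to early young adult stage. The parent, sequenced as 2 libraries, belongs to neither arm, and its values are given as background.

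In the Met/SAM cycle, SAM synthetase converts methionine into SAM, the methyl donor for phosphatidylcholine, histones, RNA and many small molecules. Once the methyl group is given away, S-adenosylhomocysteine hydrolase (AHCY-1) frees homocysteine. Methionine synthase (METR-1), a vitamin B12 enzyme kept active by its reductase MTRR-1, turns homocysteine back into methionine with a methyl group from the folate made by MTHF-1. Loss of *sams-1* therefore affects the step that uses methionine, whereas loss of any of the other genes affects the steps that remake it. For *sams-1(ww51)* the paper proposes an incomplete loss of function, overlap with other *sams* genes, or both, which was not tested here. In *C. elegans*, loss of *sams-1* is known for low phosphatidylcholine, activation of the lipogenic transcription factor SBP-1, and stored fat.

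Expression was read as TPM, a length-corrected share of the transcripts of each library that adds up to the same total in each. Differences are *sams-1(ww51)* minus the average of the 3 other strain means, with the standard error (SE) from limma. Replicate numbers were left out of that fit unless stated, and differences are on the log2(TPM + 1) scale. That scale understates the difference of genes with few transcripts. The mutant libraries each held 14066 to 14563 genes at 1 TPM or more, and the 100 most abundant genes took 31.8 to 35.98% of the TPM. TPM keeps no sequencing depth, and since the methods give an approximate minimum of reads per sample and no library totals, no counting error was computed. In whole animals, fewer cells of a type and less RNA per cell cannot be told apart. The level of *sams-1* RNA does not check the strain label, since the mutant still made the transcript. The *sams-1(ww51)* libraries were not closest to each other. Across genes, replicate 1 correlated best with replicate 1 of *mtrr-1(ww56)* (r = 0.974) and replicate 2 with replicate 2 of *mtrr-1(ww56)* (r = 0.970), and with each other at r = 0.939.

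No gene passed the test. Of 14468 genes, limma called 0 higher and 0 lower in *sams-1(ww51)* (0% of the genes) when a fold change over 1.5 and a Benjamini-Hochberg adjusted p-value under 0.01 were asked, and the smallest adjusted p was 0.164. With the replicate number as a block, the count was also 0 and the smallest adjusted p was 0.108. At an adjusted p-value under 0.05 it was 0 in both fits. Unadjusted p-values under 0.05 were given to 634 genes higher (4.38%) and 403 lower (2.79%), 1037 in all (7.17%), and with the block to 1413 higher (9.77%) and 890 lower (6.15%). Differences were above 0 in 6523 genes and below 0 in 7945.

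With each other mutant set against its 3 fellows, the same fit called 2 genes in *mtrr-1(ww56)* and 1 each for *metr-1(ww52)* and *mthf-1(ww50)*, and with the block 5, 5 and 1. At an unadjusted p under 0.05 *mthf-1(ww50)*, *metr-1(ww52)* and *mtrr-1(ww56)* gave 1546, 1450 and 2964 genes, against 1037 for *sams-1(ww51)*, and all share libraries. The called genes were *anr-19*, listed above 0 in *mthf-1(ww50)* and at 0 in the other mutants, C18D4.6, listed at 0 in *metr-1(ww52)*, *crb-3*, listed at 0.07 and 0 TPM in *mtrr-1(ww56)*, and R03A10.13, at 0 in all mutants but *mtrr-1(ww56)*. They were named after their values were seen. Ignoring the replicate numbers, 2 libraries against 6 have 28 arrangements, so that an exact two-sided permutation p, taken by doubling the one-sided value, cannot go below 0.0714 for a single gene.

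Some genes lay apart without passing the test. At any fold, both *sams-1(ww51)* libraries lay above all 6 others in 410 genes (2.83%) and below them in 356 (2.46%). Ignoring the replicate numbers, 1 of the 28 arrangements puts both libraries on a given side, and neither share is above that. This count treats all libraries as interchangeable, whereas deviations of those with the same replicate number correlated at 0.320 to 0.732. It therefore cannot decide whether the shares exceed chance. Within both replicate numbers at any fold, *sams-1(ww51)* was the highest mutant in 8.85% of genes and the lowest in 6.64%. With a fold change over 1.5, both *sams-1(ww51)* libraries lay above all 6 others in 124 genes (0.857%) and below in 89 genes (0.615%). Leaving out a library loosens the condition of no overlap, most of all where 1 *sams-1(ww51)* library is left. A higher count without a library therefore does not show by itself that the library mattered. Without *mtrr-1(ww56)* replicate 1 the counts over 1.5-fold were 628 and 210. Without *sams-1(ww51)* replicate 1 they were 368 and 200, and without *sams-1(ww51)* replicate 2 they were 741 and 811. Set only against libraries with the same replicate number, 403 genes (2.79%) lay above the 3 others in both replicates and 361 (2.5%) lay below, again with a fold change over 1.5. In 90 of the 124 genes the parent was nearer to the 3 other mutants than to *sams-1(ww51)*, whereas in 59 of the 89 genes it was nearer to *sams-1(ww51)*. These genes were chosen because *sams-1(ww51)* lay apart, and no such share was computed over all genes. Whether the parent's position in them is unusual was not tested.

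The genes that lay apart were spread over all chromosomes. Chromosome V carried 78 of these 213 genes (2.74% of its 2847 genes tested), against 1.47% over all genes. Chromosome X, which carries *sams-1*, held 25 (1.29%), and among the 220 genes starting within 1 Mb of *sams-1* there were 5 (2.27%), 4 of them lower. Positions are from the WBcel235 annotation.

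**Figure D1:**
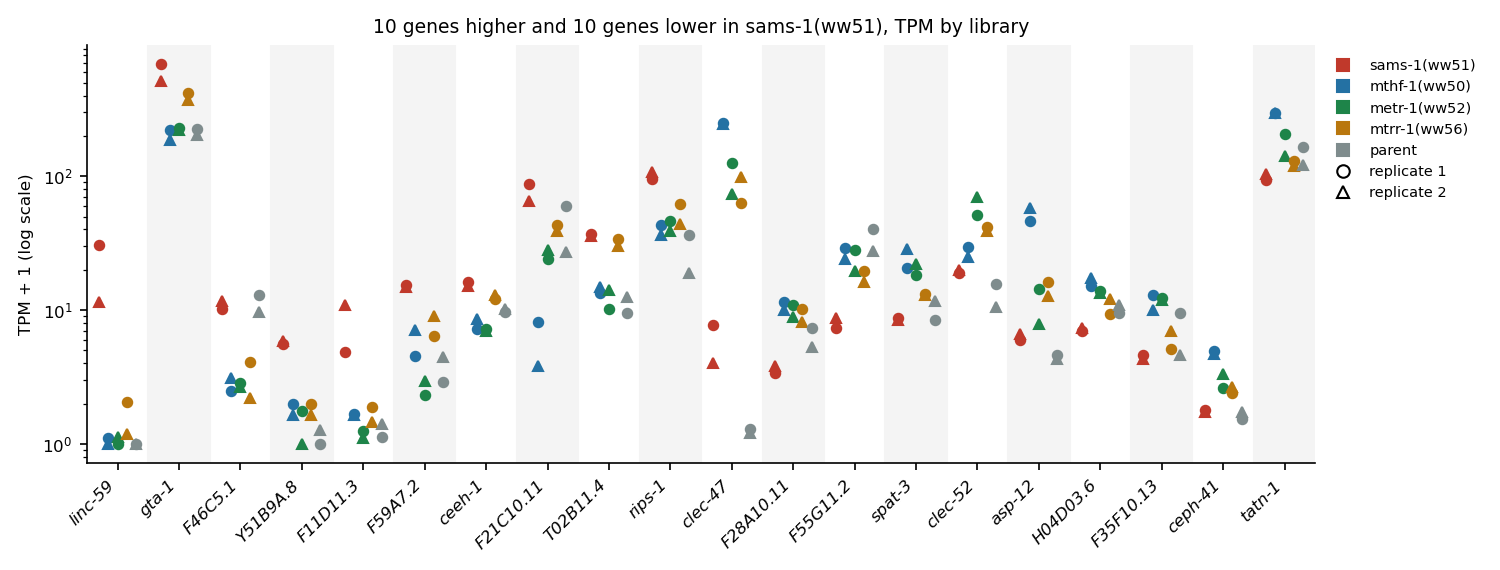
TPM + 1 on a log axis for the 10 genes higher (left) and the 10 genes lower (right) in *sams-1(ww51)* that had the smallest p-values among genes whose libraries did not overlap. Each point is 1 library, coloured by strain, with circles for replicate 1 and triangles for replicate 2; *clec-47* is at 3.01 and 6.75 TPM in *sams-1(ww51)* and at 61.6 to 247 TPM (median 111) in the 6 other mutant libraries.

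The gene with the smallest p-value was *clec-47* (WBGene00011668, chromosome V, 15175759 to 15176324), which encodes a C-type lectin, a family with many members in innate immunity. It stood at 6.75 and 3.01 TPM in replicates 1 and 2 of *sams-1(ww51)*. In *mthf-1(ww50)* it stood at 247 and 244 TPM, in *metr-1(ww52)* at 124 and 72.7, in *mtrr-1(ww56)* at 61.6 and 97.6, while the parent held 0.30 and 0.21. All 6 libraries of the other mutants thus lay far above both of *sams-1(ww51)*, which in turn lay above the parent. The mean TPM was 28.9-fold lower in *sams-1(ww51)*, and the log2 difference was -4.46 (SE 0.34, 95% interval -5.29 to -3.64), with an adjusted p of 0.164 in limma after Benjamini-Hochberg. Against the single strains the log2 difference was -5.47 for *mthf-1(ww50)*, -4.11 for *metr-1(ww52)* and -3.82 for *mtrr-1(ww56)*. Across the alternatives the difference lay between -4.94 and -3.99, and its adjusted p between 0.0266, with the parent libraries in the fit, and 0.369.

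Among the other genes lower in *sams-1(ww51)*, the noncoding RNA F28A10.11 was listed at 2.41 and 2.82 TPM, against 7.16 to 10.5 TPM (median 9.03) in the 6 other libraries. *asp-12*, an aspartyl protease gene, stood at 5.01 and 5.57 TPM against 6.90 to 57.1 TPM (median 14.3), with the parent at 3.65 and 3.30. The gap for *asp-12* was narrow, since *metr-1(ww52)* replicate 2 held 6.90, and its log2 difference was -3.04 against *mthf-1(ww50)* but -0.76 against *metr-1(ww52)*. *tatn-1*, which encodes the tyrosine aminotransferase that begins tyrosine breakdown, stood at 92.5 and 103 TPM against 118 to 298 TPM (median 173). *spat-3*, a RING-finger gene of the Polycomb class of histone ubiquitin ligases, stood at 7.65 and 7.48 TPM against 12.02 to 27.8 TPM (median 18.5), and near the parent at 7.40 and 10.6. In both *tatn-1* and *spat-3*, the highest library was of *mthf-1(ww50)* and *mtrr-1(ww56)* lay nearest to *sams-1(ww51)*. The remaining genes of this group, F55G11.2, *clec-52*, H04D03.6, F35F10.13 and *ceph-41*, had a mean TPM lower in *sams-1(ww51)* by a factor of 2.04 to 3.20, and *ceph-41* shares 123 bp of exon with neighbouring genes.

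Of the genes higher in *sams-1(ww51)*, *linc-59* (WBGene00219594, chromosome V, 16319028 to 16320419), a long intergenic noncoding RNA, was listed at 29.5 and 10.5 TPM, whereas the 6 other libraries ranged from 0 to 1.07 and the parent was listed at 0 in both. The whole of its 503 bp of exon overlaps other annotated RNAs. They are WBGene00219477 on the same strand, and 21ur-13684 and 21ur-12752 on the opposite strand. Strand could not separate reads of *linc-59* from those of WBGene00219477. The methods give RSEM's default settings, which do not use strand, so it did not separate those of the other RNAs either. The log2 difference of *linc-59* was 3.96 (SE 0.40), with an adjusted p of 0.302 in limma after Benjamini-Hochberg. *gta-1*, which encodes the GABA transaminase, stood at 684 and 511 TPM against 187 to 421 TPM (median 224), with *mtrr-1(ww56)* at 421 and 373 and the parent at 223 and 203. Thus *gta-1* in *mtrr-1(ww56)* lay between *sams-1(ww51)* and all other libraries. *rips-1*, a methyltransferase-like gene named for the hydrogen sulfide response, stood at 93.6 and 107 TPM against 35.6 to 60.9 TPM (median 42.7).

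*ceeh-1*, an epoxide hydrolase gene, stood at 15.2 and 14.1 TPM against 5.95 to 12.03 TPM (median 6.86). F46C5.1 was different in kind, because the parent resembled *sams-1(ww51)*. It was listed at 9.21 and 10.8 TPM in *sams-1(ww51)*, 1.2 to 3.07 TPM (median 1.77) in the 6 other libraries, and 11.95 and 8.67 in the parent. The other genes of this group, Y51B9A.8, F11D11.3, F59A7.2, F21C10.11 and T02B11.4, had log2 differences of 1.05 to 2.30. F11D11.3 was uneven between the *sams-1(ww51)* libraries, at 3.84 and 9.85 TPM, and T02B11.4 was at 36.2 and 35.0 TPM against 33.2 and 29.1 in *mtrr-1(ww56)*. Over the 10 genes higher and the 10 lower, adjusted p-values in limma after Benjamini-Hochberg were 0.164 to 0.377.

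Met/SAM cycle genes came next. Of the 9 members tested 0 passed, 2 lay below all 6 other libraries with a fold change over 1.5 (0.615% of all genes), 0 lay above (0.857% of all genes), and the median difference was -0.25, against -0.025 over all genes tested. *sams-1* itself (WBGene00008205, chromosome X, 11965962 to 11969893) stood at 751 and 388 TPM in its own mutant, 326 and 331 in *mthf-1(ww50)* and 362 and 299.9 in *metr-1(ww52)*. *mtrr-1(ww56)* held 511 and 230.2, and the parent 80.2 and 33.7. The strain that carries the *sams-1* mutation thus did not have the lowest *sams-1* RNA. It was the highest within each replicate number, although replicate 2 fell inside the range of the 6 libraries. Its log2 difference was 0.69 (SE 0.36, adjusted p = 0.716 in limma after Benjamini-Hochberg, SE 0.25 with the block), and 0.22 without replicate 1.

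The paralog *sams-5* lay on the other side. It was listed at 28.8 and 15.95 TPM in *sams-1(ww51)*, 71.1 and 77.3 in *mthf-1(ww50)*, 61.0 and 58.8 in *metr-1(ww52)*, while *mtrr-1(ww56)* held 33.1 and 54.02. Both *sams-1(ww51)* libraries lay below the other 6 and near the parent, which held 19.4 and 16.5 (log2 difference -1.38, SE 0.27, adjusted p = 0.401 in limma after Benjamini-Hochberg). *sams-3* was at 114.3 and 104 TPM against 107 to 179.8 TPM (median 148), a difference of -0.35, and *sams-4* at 93.3 and 109 TPM against 90.3 to 159 TPM (median 117), a difference of -0.21. Neither was lower than in *mtrr-1(ww56)*, from which they differed by 0.002 and 0.11. They differed by -0.63 and -0.47 from *mthf-1(ww50)* and by -0.43 and -0.28 from *metr-1(ww52)*. The SAM synthetase genes are close relatives, and RSEM divides reads that match several of them, so their separate levels are uncertain.

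*ahcy-1* (WBGene00019322, chromosome I, 6836469 to 6838140) stood at 1483 and 979 TPM in *sams-1(ww51)*, below each of the 6 other libraries, which held 1725 to 2296 TPM (median 2076). The parent held 756 and 788 TPM, so that the *sams-1(ww51)* libraries were above it and below the other mutants. Its log2 difference was -0.76 (SE 0.18, 95% interval -1.20 to -0.33), with an adjusted p of 0.479 in limma after Benjamini-Hochberg and of 0.141 with the block. The difference was -0.46 without *sams-1(ww51)* replicate 2 and -1.06 without replicate 1.

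The 3 genes mutated in the other arm lay close together. *metr-1* stood at 219 and 131 TPM in *sams-1(ww51)* against 173 to 242 TPM (median 189.6), and *mtrr-1* at 149 and 85.2 TPM against 112 to 170.5 TPM (median 145). *mthf-1* stood at 573 and 359 TPM against 304 to 465 TPM (median 378), and *mel-32*, the serine hydroxymethyltransferase that loads the folate cycle, at 638 and 425 TPM against 413 to 593 TPM (median 517). For *metr-1* and *mtrr-1*, replicate 1 fell inside the range of the others and replicate 2 below it. The log2 differences were -0.25, -0.33, 0.26 and 0.03 for *metr-1*, *mtrr-1*, *mthf-1* and *mel-32*. Those of *metr-1* and *mtrr-1* became 0.12 and 0.067 without *sams-1(ww51)* replicate 2, and that of *mthf-1* became -0.076 without replicate 1, although *mthf-1* was highest in *sams-1(ww51)* within each replicate number.

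**Figure D2:**
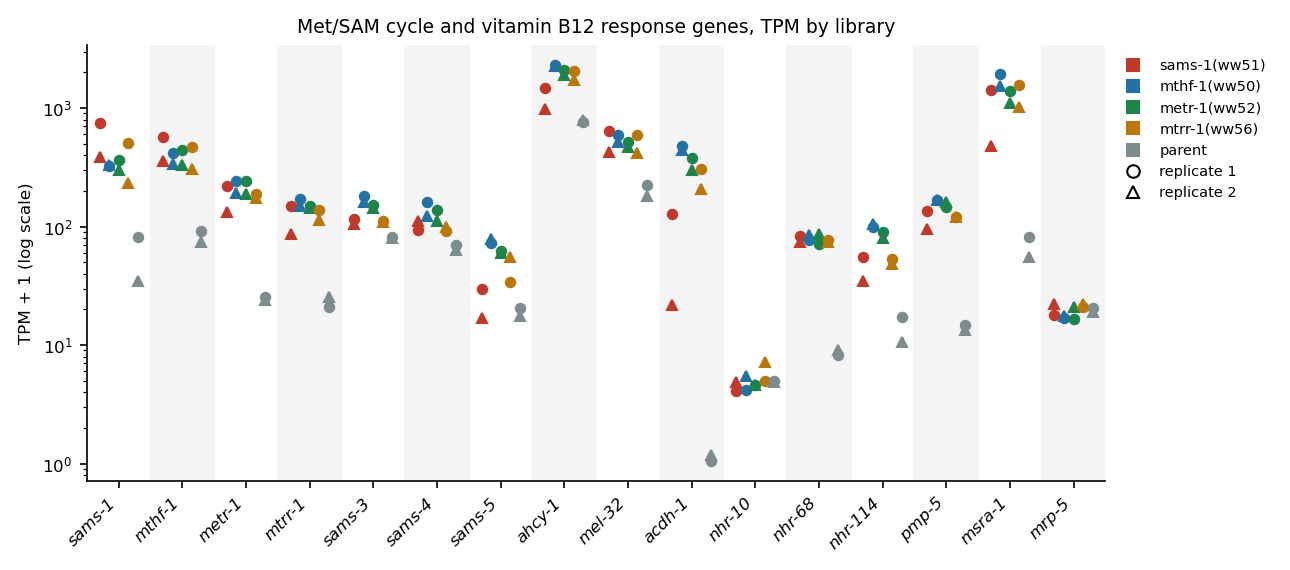
TPM + 1 on a log axis for the Met/SAM cycle genes and the vitamin B12 response genes, 1 point per library, with circles for replicate 1 and triangles for replicate 2. *sams-5*, *ahcy-1* and *acdh-1* are the 3 genes in which both *sams-1(ww51)* points lie below all 6 points of the other mutants with a fold change over 1.5.

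The vitamin B12 response list holds genes regulated by dietary vitamin B12, among them the gene whose promoter drives the reporter. *acdh-1* (WBGene00016943, chromosome I, 6497436 to 6499560), the acyl-CoA dehydrogenase that begins the propionate shunt, stood at 126 and 20.9 TPM in *sams-1(ww51)*, 477 and 443 in *mthf-1(ww50)* and 378 and 301 in *metr-1(ww52)*. *mtrr-1(ww56)* held 305 and 208, and the parent 0.05 and 0.18. Both *sams-1(ww51)* libraries lay below all others of the mutants and far above the parent, and the mean TPM was 4.78-fold lower than in the other mutants. The log2 difference was -2.69 (SE 0.62, 95% interval -4.21 to -1.16), with an adjusted p of 0.479 in limma after Benjamini-Hochberg, 0.143 with the block and 0.052 without *sams-1(ww51)* replicate 1. Its size rested on the unequal replicates, at -1.42 without replicate 2 and -3.95 without replicate 1.

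Of the 7 members 0 passed, and the median difference was -0.35. *nhr-114*, a nuclear hormone receptor gene of the response to low methionine cycle activity, stood at 53.99 and 33.6 TPM in *sams-1(ww51)*, 97.2 and 104 in *mthf-1(ww50)*, 88.3 and 79.3 in *metr-1(ww52)*, while *mtrr-1(ww56)* held 52.6 and 47. Only *mtrr-1(ww56)* overlapped with *sams-1(ww51)*, and the log2 difference was -1.22 from *mthf-1(ww50)*, -0.96 from *metr-1(ww52)* and -0.22 from *mtrr-1(ww56)*. *nhr-68*, the receptor gene that acts with *nhr-10* in the response to propionate, did not follow *nhr-114*. It held 82.5 and 72.9 TPM against 70.0 to 85.7 TPM (median 76.1), a difference of 0.00 (SE 0.12, 95% interval -0.28 to 0.29), while the parent held 7.2 and 8.09.

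*msra-1*, a methionine sulfoxide reductase gene, stood at 1413 and 476 TPM against 1017 to 1944 TPM (median 1456). Replicate 2 alone was low, and the difference of -0.76 became 0.024 without it. *pmp-5*, a transporter gene of the ABC family, was at 135 and 94.8 TPM against 119 to 167 TPM (median 152), a difference of -0.35. *nhr-10* and *mrp-5*, which encodes an exporter of vitamin B12, had differences of -0.17 and 0.07. *nhr-10* was still listed at 3.13 to 6.19 TPM despite its deletion in all strains.

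For propionate breakdown, the vitamin B12-dependent route and the shunt together, 0 of the 11 members tested passed, and the median difference was 0.053. Apart from *acdh-1* the shunt genes did not follow its pattern. *ech-6*, the enoyl-CoA hydratase, had a difference of -0.08, *hach-1*, the hydrolase, of 0.08, and *hphd-1*, the dehydrogenase, of 0.05. *alh-8*, the last step, was at 379.8 and 344 TPM against 233 to 314 TPM (median 277), above all 6 other libraries by 0.40 (SE 0.12). In the vitamin B12-dependent route, the carboxylase genes *pcca-1* and *pccb-1*, the epimerase *mce-1*, the mutase *mmcm-1* and *mmab-1* had differences of -0.13 to 0.14. *mmaa-1*, which handles the cobalamin cofactor, was at 66.6 and 52.8 TPM against 61.3 to 91.9 TPM (median 75.0), a difference of -0.33.

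Phosphatidylcholine is made in the worm by PMT-1 and PMT-2, which methylate phosphoethanolamine with SAM, or from choline through choline kinases, PCYT-1 and choline phosphotransferases. Of the 8 genes tested 0 passed, 7 had a difference above 0, and the median was 0.29 against -0.025 over all genes. *pmt-1* stood at 397 and 239 TPM against 144 to 254 TPM (median 215). Replicate 1 alone was above the 6 other libraries. The difference of 0.61 had an SE of 0.25 (adjusted p = 0.697 in limma after Benjamini-Hochberg), and it was 0.25 without that replicate. *pmt-2* was at 1002 and 641 TPM against 557 to 922 TPM (median 686), a difference of 0.22.

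*pcyt-1*, the rate-limiting enzyme of the choline route, was at 23.4 and 22.3 TPM against 14.7 to 20.8 TPM (median 18.2). Of the genes tested in this list, it alone had both *sams-1(ww51)* libraries above all 6 others, against 2.83% of all genes at any fold. Its log2 difference was 0.34 (SE 0.090, adjusted p = 0.524 in limma after Benjamini-Hochberg). The choline kinases *ckb-1*, *ckb-2* and *ckb-4* had differences of 0.22, 0.40 and 0.32, and the phosphotransferases *cept-1* and *cept-2* of 0.25 and -0.08. From *mtrr-1(ww56)* alone the 3 choline kinases differed by -0.17, -0.01 and 0.05. *ckb-2* was uneven between the *sams-1(ww51)* libraries, at 38.6 and 13.4 TPM. Its difference had an SE of 0.41 and ranged from -0.34 to 1.13 when single libraries were left out. *ckb-3* did not reach the expression minimum and was not tested.

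Fatty acid synthesis genes mostly lay higher in *sams-1(ww51)*, and 0 of 19 passed. Of the 19 lipogenesis genes 17 had a difference above 0, against 6523 of 14468 over all genes, with a median of 0.41 against -0.025. In 7 of the 19 both *sams-1(ww51)* libraries lay above all 6 others, against 2.83% of all genes at any fold, and in 0 below. In 9 of the 19 *sams-1(ww51)* was the highest strain within both replicate numbers, against 8.85% of all genes. The mean log2(TPM + 1) over the list was 7.004 and 6.79 in *sams-1(ww51)*, 6.32 to 6.66 in the 6 other libraries, and 6.09 and 5.97 in the parent. Summed over the 7 intestinal markers, the tissue where these genes are mainly active, the level was 1329.7 to 1494 TPM in *sams-1(ww51)* and 977 to 1351 TPM in the other mutants. The part of intestinal RNA content in the lipogenesis differences was not tested.

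*fat-5*, one of the delta-9 desaturase genes, was at 112 and 117 TPM in *sams-1(ww51)*, 52.4 and 35.7 in *mthf-1(ww50)*, 67.96 and 51.2 in *metr-1(ww52)*, while *mtrr-1(ww56)* held 30.4 and 62.5. Both libraries lay above the other 6, and the parent held 8.08 and 4.52 (log2 difference 1.23, SE 0.30, adjusted p = 0.500 in limma after Benjamini-Hochberg). *fat-6*, the desaturase that makes oleate with FAT-7, was at 872 and 670.1 TPM against 388 to 577 TPM (median 509), a difference of 0.64 (SE 0.14). *fat-7* lay inside the range, at 67.2 and 52.7 TPM against 32.4 to 77.0 TPM (median 43.8). *fat-6* and *fat-7* are close relatives whose reads RSEM may divide between them.

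The elongase genes *elo-5* and *elo-6*, which work on branched-chain fatty acids, were both above all 6 libraries of the other mutants. *elo-5* was at 280.4 and 273 TPM against 121 to 249 TPM (median 203), with the parent at 258 and 171. *elo-6* was at 360.4 and 373 TPM against 155 to 318 TPM (median 237), with the parent at 338 and 193. Their differences were 0.62 (SE 0.11) and 0.71 (SE 0.14), with an adjusted p of 0.401 each in limma after Benjamini-Hochberg.

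*pod-2*, the acetyl-CoA carboxylase, was at 101 and 69.1 TPM against 44.2 to 69.1 TPM (median 55.2), where the lower library barely cleared the highest of the others. *fasn-1*, the fatty acid synthase, was at 102 and 50.3 TPM against 37.2 to 71.7 TPM (median 42.8), a difference of 0.65 with replicate 1 alone above the range. The elongase *elo-1* and the nuclear receptor gene *nhr-80* were above all 6 others by 0.31 and 0.37. *fat-2* and *fat-4*, of polyunsaturated fatty acid synthesis, had differences of 0.51 and 0.54 and overlapped with *mtrr-1(ww56)*. *sbp-1* itself stood at 7.04 and 9.24 TPM against 5.86 to 10.6 TPM (median 8.39), a difference of -0.04 (SE 0.25). *mdt-15* and *nhr-49*, regulators of the desaturase genes, had differences of 0.02 each.

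**Figure D3:**
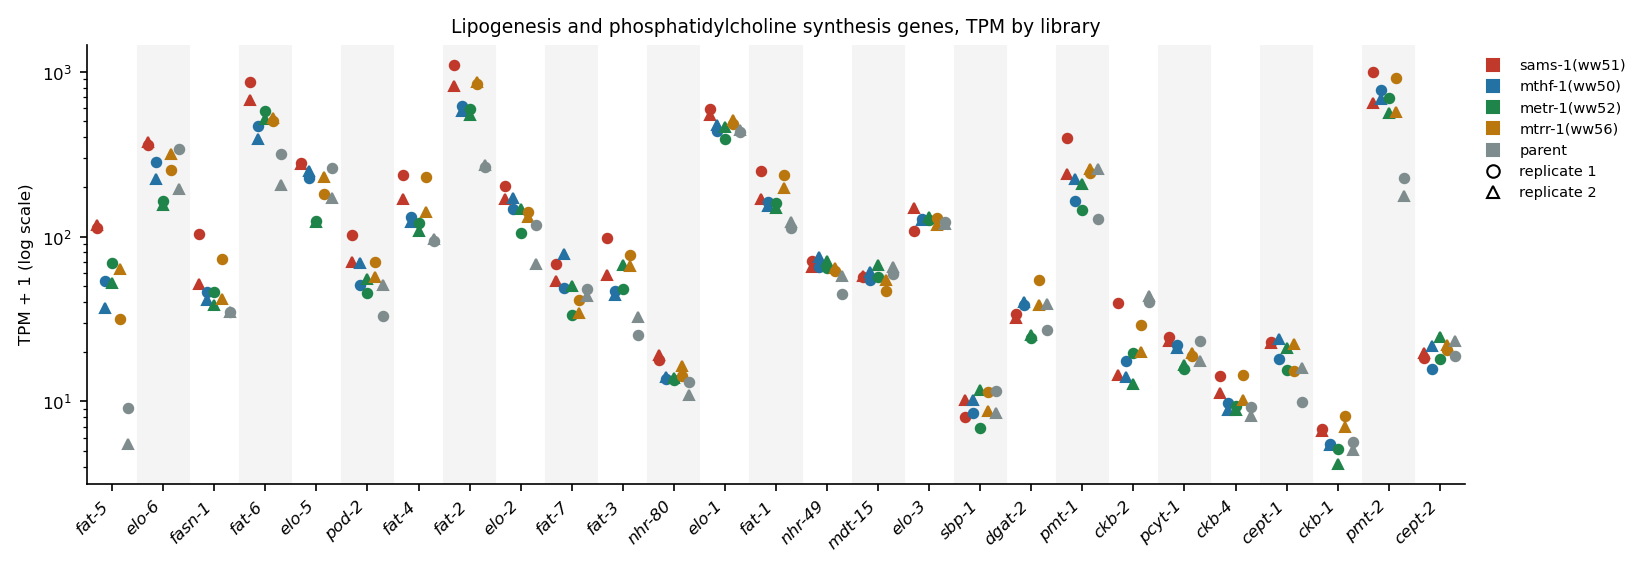
TPM + 1 on a log axis for the 19 lipogenesis genes and the phosphatidylcholine synthesis genes, with 1 point per library. In 7 of the 19 lipogenesis genes both *sams-1(ww51)* points lie above the 6 points of the other mutants, while *sbp-1* at 7.04 and 9.24 TPM lies among them.

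Transsulfuration leads homocysteine out of the cycle. Of 13 transsulfuration and sulfide genes tested 0 passed and 12 had a difference above 0, against 6523 of 14468 over all genes, with a median of 0.16. The mean log2(TPM + 1) of the list was 4.81 and 4.71 in *sams-1(ww51)* and nearly as high in *mtrr-1(ww56)*, at 4.77 and 4.62. It was 4.31 and 4.22 in *mthf-1(ww50)* and 4.32 and 4.29 in *metr-1(ww52)*. *cysl-2*, a cysteine synthase-like gene that detoxifies cyanide, was at 182 and 121 TPM in *sams-1(ww51)*, 39.6 and 19.3 in *mthf-1(ww50)*, 51.3 and 23.2 in *metr-1(ww52)*, while *mtrr-1(ww56)* held 126 and 44.5. It was highest in *sams-1(ww51)* within each replicate number but overlapped across them. Its log2 difference was 1.80 (SE 0.52, adjusted p = 0.577 in limma after Benjamini-Hochberg, 0.109 with the block). *cth-1*, a cystathionine gamma-lyase gene, was at 26.9 and 62.9 TPM against 14.4 to 45.8 TPM (median 28.8), where replicate 2 alone was high. *cbs-1*, a cystathionine beta-synthase gene, whose product draws homocysteine out of the cycle, was at 6.62 and 7.53 TPM against 4.34 to 6.50 TPM (median 5.78), and in the parent at 25.8 and 16.1.

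Polyamine synthesis uses decarboxylated SAM. Of its 3 genes 0 passed, with a median of 0.48. *smd-1*, the SAM decarboxylase gene, was at 287 and 296 TPM against 173 to 241 TPM (median 209), above all 6 others by 0.48 (SE 0.10, adjusted p = 0.435 in limma after Benjamini-Hochberg). *spds-1*, the spermidine synthase gene, was at 27.9 and 31.4 TPM against 15.9 to 31.2 TPM (median 20.95), and *odc-1*, the ornithine decarboxylase gene, had a difference of 0.24. In the folate cycle 0 of 10 genes passed, with a median of 0.16. *alh-3*, a formyltetrahydrofolate dehydrogenase gene, was at 72.4 and 58.8 TPM against 34.0 to 74.6 TPM (median 41.4), and *folt-2*, a folate transporter gene, at 29.7 and 9.22 TPM against 7.15 to 25 TPM (median 12.3). In both, the *sams-1(ww51)* libraries overlapped with those of the other mutants.

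Of 29 methyltransferase genes 0 passed and 22 had a difference below 0, against 7945 of 14468 over all genes, with a median of -0.12. The mean log2(TPM + 1) of the list was 4.116 and 4.034 in *sams-1(ww51)* and 4.078 and 4.008 in *mtrr-1(ww56)*. It was 4.119 and 4.24 in *mthf-1(ww50)* and 4.199 and 4.138 in *metr-1(ww52)*. Within each replicate number *sams-1(ww51)* thus lay above *mtrr-1(ww56)* and below *mthf-1(ww50)* and *metr-1(ww52)*. In 0 of the 29 genes did both *sams-1(ww51)* libraries lie outside the range of the 6 others. Over all genes the shares were small too, at 2.83% above the range and 2.46% below. The largest differences in the list were those of *comt-1*, a catechol methyltransferase-like gene, at 0.90 (SE 0.71), and *anmt-3*, of the amine N-methyltransferase family, at 0.52 (SE 0.33). *comt-1* was listed at 8.09 and 2.71 TPM in *sams-1(ww51)* and at 9.35 and 1.01 in *mtrr-1(ww56)*.

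Genes of the unfolded protein responses were included because phosphatidylcholine is a main lipid of the endoplasmic reticulum (ER). Of 24 tested 0 passed, and the median was 0.12. The 10 ER chaperones and disulfide isomerases among them, grouped after their values were seen, had differences of 0.12 to 0.79. *pdi-2*, a protein disulfide isomerase gene needed for collagen, was at 2872 and 1661 TPM in *sams-1(ww51)*, 1193 and 876 in *mthf-1(ww50)* and 1514 and 893 in *metr-1(ww52)*. *mtrr-1(ww56)* held 2548 and 1120.1, and the parent 884 and 839. *dnj-27* was at 43.6 and 21.1 TPM against 10.3 to 37.2 TPM (median 17.3). For both genes, replicate 1 of *mtrr-1(ww56)* was above replicate 2 of *sams-1(ww51)*. *hsp-4*, the BiP gene most used as a reporter of ER stress, was at 393 and 273 TPM against 225 to 354 TPM (median 338), and 376 and 516 in the parent, a difference of 0.12 (SE 0.24). Of the mitochondrial chaperones, *hsp-6* had a difference of -0.19 and *hsp-60* of -0.13.

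Immune effector genes lay on both sides. Of 43 tested 0 passed, 25 had a difference above 0 and 18 below, and the median was 0.26. Beside *clec-47* and *asp-12*, *dod-24* and *lys-5* lay below all 6 other libraries by more than 1.5-fold, 4 members in all against 0.615% of all genes, and *spp-8* above, 1 member against 0.857%. *dod-24*, a CUB-domain gene, was at 55.0 and 28.8 TPM against 64.9 to 167 TPM (median 94.2), with the parent at 396 and 300.5. *lys-5*, a lysozyme gene, was at 4.88 and 4.39 TPM against 5.73 to 12.6 TPM (median 8.89), and the parent at 0.76 and 0.59. *spp-8*, a saposin-like gene, was at 95.7 and 109 TPM against 48.05 to 84.96 TPM (median 66.4), a difference of 0.65. In *clec-47*, *asp-12* and *lys-5* the parent was lower still than *sams-1(ww51)*, and in *dod-24* it was higher than all mutants. *irg-1*, an infection response gene, had a difference of 1.37 (SE 0.55), with 6.64 and 29.8 TPM in its *sams-1(ww51)* libraries against 2.18 to 9.13 TPM (median 5.16).

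**Figure D4:**
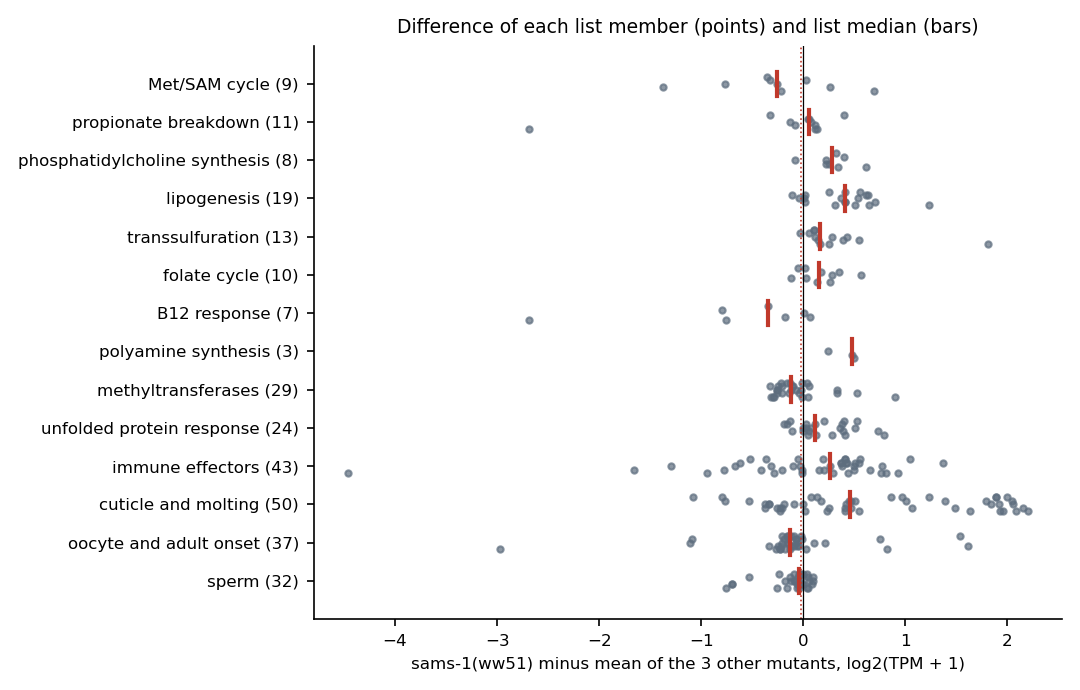
Log2 difference of *sams-1(ww51)* from the 3 other mutants for each tested member of the gene lists (points) with the list medians; the dotted line is the median of all 14468 genes, -0.025. The lipogenesis points lie mostly right of 0 with a median of 0.41, the points at -4.46 and -2.69 are *clec-47* and *acdh-1*, and the cuticle and molting points reach 2.20.

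Collagens and apical matrix proteins are made in pulses before each molt, so their level follows the exact stage of the animals. Of 50 cuticle and molting genes tested 0 passed, and the median was 0.46 against -0.025 over all genes. The mean log2(TPM + 1) of the list was 6.90 and 6.45 in *sams-1(ww51)*, 6.96 and 5.91 in *mtrr-1(ww56)*, 6.13 and 5.46 in *mthf-1(ww50)*, 6.17 and 5.33 in *metr-1(ww52)*, and 4.69 and 4.14 in the parent. Replicate 1 of *mtrr-1(ww56)* and replicate 1 of *sams-1(ww51)* were the highest, and replicate 1 was above replicate 2 in each strain. In 0 of the 50 did both *sams-1(ww51)* libraries lie outside the range of the 6 others. Over all genes, 2.83% lay above that range and 2.46% below. Within both replicate numbers, *sams-1(ww51)* was the highest strain in 16 of the 50 and the lowest in 3, against 8.85% and 6.64% of all genes.

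The 6 furrow collagen genes *dpy-2*, *dpy-3*, *dpy-7*, *dpy-8*, *dpy-9* and *dpy-10*, grouped after their values were seen, had differences of 1.79 to 1.99. Within each replicate number *sams-1(ww51)* was highest for each of them, yet *mtrr-1(ww56)* replicate 1 was above *sams-1(ww51)* replicate 2. *wrt-10*, a hedgehog-related gene, was at 376 and 81.2 TPM in *sams-1(ww51)*, 273 and 35.2 in *mtrr-1(ww56)*, 43.9 and 21.2 in *mthf-1(ww50)*, 30.2 and 9.19 in *metr-1(ww52)*, and 3.75 and 2.05 in the parent. Its log2 difference of 2.20 had an SE of 0.98 (adjusted p = 0.711 in limma after Benjamini-Hochberg, 0.140 with the block).

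Genes of the adult onset did not lie on 1 side. *col-19*, the adult cuticle collagen, was at 1.00 and 159.7 TPM in *sams-1(ww51)*, 11 and 629 in *mtrr-1(ww56)*, 32.6 and 356 in *metr-1(ww52)*, 100.2 and 837 in *mthf-1(ww50)*, and 371 and 1162 in the parent. Within each replicate number *sams-1(ww51)* was the lowest. Its log2 difference was -2.97 (SE 2.28, or 0.71 with the block), which became 0.19 without replicate 1. The yolk protein gene *vit-2* was at 496 and 1179.6 TPM against 54.7 to 1324 TPM (median 330.1), a difference of 1.62 (SE 1.53, or 0.54 with the block). Of the 37 oocyte and adult onset genes 0 passed, 30 had a difference below 0, against 7945 of 14468 over all genes, and the median was -0.13.

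The mean log2(TPM + 1) of that list was 4.19 and 5.55 in *sams-1(ww51)*, 4.58 and 6.56 in *mthf-1(ww50)*, 4.69 and 6.13 in *metr-1(ww52)*, while *mtrr-1(ww56)* held 3.19 and 4.73. *sams-1(ww51)* thus lay between *mtrr-1(ww56)* and the other strains within each replicate number. Of 32 sperm genes 0 passed, with a median of -0.044. *fog-1*, which directs germ cells to the sperm fate, was at 5.42 and 3.96 TPM against 6.42 to 12.4 TPM (median 7.53), below all 6 other libraries. *fog-3* had a difference of -0.76, mostly from *mtrr-1(ww56)*. Its log2 difference was -1.68 from *mtrr-1(ww56)*, -0.49 from *mthf-1(ww50)* and -0.11 from *metr-1(ww52)*. The part of exact stage in the differences given here was not tested.

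**Figure D5:**
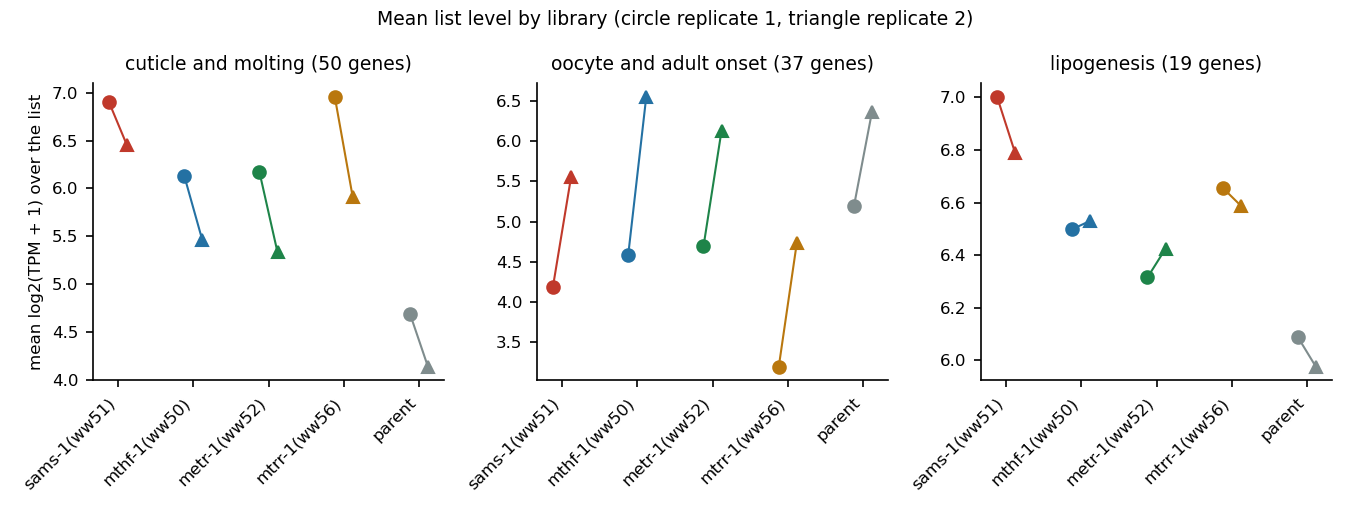
Mean log2(TPM + 1) over the cuticle and molting, the oocyte and adult onset, and the lipogenesis lists in each library (circle replicate 1, triangle replicate 2). The replicates lie in the same order in all strains for the first 2 lists, and for lipogenesis both *sams-1(ww51)* libraries, at 7.004 and 6.79, lie above all others.

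Defining markers of 8 tissues and cell types were all above 0 in every library. The 7 intestinal markers had differences of -0.15 to 0.52, 5 above 0 and 2 below. Of these, the gut esterase gene *ges-1* was at 45.2 and 47.7 TPM against 26.2 to 41.8 TPM (median 34.2). It lay above all 6 others by 0.43 (SE 0.13). The proton pump gene *vha-6* was at 196 and 175 TPM against 112 to 178 TPM (median 116), a difference of 0.52, and the intestinal transcription factor genes *elt-2* and *elt-7* had differences of 0.03 and -0.06. Summed over the 4 pharynx markers, the level was 42.3 to 45.3 TPM in *sams-1(ww51)* and 48.0 to 71.1 TPM in the other mutants, without overlap. Among them the pharyngeal myosin gene *myo-2* was at 16.1 and 18.0 TPM against 20.3 to 34.5 TPM (median 26.4), and *myo-1*, *pha-4* and *ceh-22* had differences of -0.34, -0.13 and 0.05. Differences were -0.08 to 0.12 for the 5 body wall muscle markers, -0.04 to 0.32 for the 5 neuronal markers, and -0.04 to 0.10 for the 5 sperm markers. The 5 hypodermis markers, which include *col-19* and *dpy-7*, spread from -2.97 to 1.83. Germline and oocyte markers had averages near 0 made of opposite strain differences. They were -0.21 to -0.01 for the 5 germline markers and -0.19 to -0.09 for the 5 oocyte markers, while *mex-5*, an RNA-binding protein gene of the germline, differed by -0.80 from *mthf-1(ww50)*, -0.69 from *metr-1(ww52)* and 1.03 from *mtrr-1(ww56)*. The summed germline level was 578 to 679 TPM in *sams-1(ww51)* and 369 to 971 TPM in the other mutants.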

How the data were processed

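RNA was sequenced from whole animals of 4 mutant strains and their parent, 2 libraries each. According to the methods, the authors mapped reads with bowtie2 to the WormBase WS271 genome version, estimated TPM with RSEM at default settings, and the authors deposited 1 table of TPM per gene for all libraries. It lists 46903 genes, and 0 of its columns were without a sample. TPM divides reads among genes by length and library total, so it keeps no depth, and reads shared by relatives are divided by a model. DESeq2 and R 3.6.3 stand in the submitters' processing notes, without a test named for these libraries. Gene positions are from WBcel235 and were not compared base by base with WS271. No sequence is shown.

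Groups were taken from the sample labels. Values were transformed to log2(TPM + 1), and 14468 genes whose TPM averaged 1 or more in the 8 mutant libraries were tested with limma 3.58.1 (mean-variance trend, 4 strain means, R 4.3.3) and Benjamini-Hochberg adjustment over all of them. Calls needed a fold change over 1.5 with the adjusted p-value under 0.01. The series design calls the libraries of a strain biological duplicates. Tables were drawn up and plotted with pandas 2.3.3 and matplotlib 3.10.9 under Python 3.11.15, and the fit was tested on simulated data.

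The genes named are the 10 with the smallest p-values on each side among those over 1.5-fold with no overlap, the Met/SAM, propionate, phosphatidylcholine and vitamin B12 genes, those of largest difference in each other list, tissue markers, and others chosen after their values were seen. The 22 lists hold 328 different genes, of which 2 were not found and 318 were tested. The members and lists were chosen with earlier results of these data known. The labels do not say whether equal replicate numbers mark a shared batch. Deviations of libraries with the same number correlated at 0.320 to 0.732 over the 6 pairs of strains, all over 0.1. The main fit left the replicate number out, and with it as a block the median SE fell from 0.172 to 0.138. The alternatives were other pseudocounts, filters, scalings, models and thresholds, the replicate block, and leaving out each library, and comparing within replicate numbers was added after seeing the data.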

Additional observations from a re-analysis of the deposited data

Results flagged for a closer look

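In 5 of 79 values tested, 1 of the 6 libraries of the other mutants lay far from the rest, where chance gives about 1 in 20. In 4 of the 5 it was replicate 1 of *mtrr-1(ww56)*. *linc-59* was highest there at 1.07 TPM, with the next library at 0.19. *hach-1*, the hydrolase of the propionate shunt, was highest there at 49.7 TPM, with the next at 45.5. *ckb-4*, a choline kinase gene, was highest there at 13.5 TPM, with the next at 9.12. The mean log2(TPM + 1) of the 5 sperm markers was lowest there at 3.43, with the next at 3.94. Y51B9A.8 was listed at 0 TPM in replicate 2 of *metr-1(ww52)*, with the next library at 0.64.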

How the results depend on the processing

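Counts of called genes for *sams-1(ww51)* were 0 higher and 0 lower under all but 1 of the settings. With no filter on low values, 4 genes were called higher, namely R02D5.20 (listed under 2 gene identifiers with equal values), T28D9.13 and K08D10.13, each listed at 0 in the 6 other libraries and at no more than 2.74 TPM in *sams-1(ww51)*. Leaving out each library gave 0 to 0. A fit that leaves out 1 library assumes that the lone library of its strain varies like the others. For the other mutants against their fellows, *mthf-1(ww50)* had 0 genes called at a pseudocount of 0.1, with a filter of 5 TPM and with quantile normalization, 2 with no filter, and 0 to 0 without single libraries. *metr-1(ww52)* had 2 with no filter, 0 with a filter of 5 TPM, 0 with quantile normalization, 2 with no trend, 5 with the replicate block, 14 when fitted as 2 groups, 16 with all 10 libraries, 22 at an adjusted p of 0.05, 0 with limma's treat, and 0 to 0 without single libraries. *mtrr-1(ww56)* had 1 at a pseudocount of 0.1, 6 with no filter, 1 with a filter of 5 TPM, 4 with median-ratio scaling, 5 with the replicate block, 6 with all 10 libraries, 13 at an adjusted p of 0.05, and 0 to 2 without single libraries. The cause was not tested.

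The genes lying apart by more than 1.5-fold, 124 higher and 89 lower, became 71 and 53 with a filter of 5 TPM, which tests fewer genes, 164 and 118 at a pseudocount of 0.1, 145 and 98 with no filter, 124 and 82 with median-ratio scaling, and 126 and 84 with quantile normalization. Of 67 named genes with a difference over 1 SE, 6 changed sign under at least 1 of the 20 alternatives. Leaving out single libraries, the difference ranged from -0.076 to 0.60 for *mthf-1* and from -6.13 to 0.19 for *col-19*, which changed sign without *sams-1(ww51)* replicate 1, and from -0.63 to 0.12 for *metr-1*, -0.73 to 0.067 for *mtrr-1*, -1.54 to 0.024 for *msra-1* and -0.053 to 1.15 for *cth-1*, which changed sign without replicate 2. In *mthf-1* and *col-19*, *sams-1(ww51)* kept its side within both replicate numbers, and leaving out 1 of its libraries sets the other against libraries of both numbers. The block changed no call for *sams-1(ww51)*. Median-ratio scaling moved the median of all genes by 0.0204 and quantile normalization by 0.00829 on the log2 scale. TPM without depth, 2 libraries per strain and 1 isolate per gene limit all values.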
